A study of Mus musculus with 13 samples.

Results

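IgLON and contactin genes, 10 of the 23427 genes listed in the count tables of single excitatory neurons of the mouse claustrum, were examined by cell class and by projection target. The genes were Ntm, Opcml, Lsamp and Negr1, which encode IgLON proteins, and Cntn1 to Cntn6, which encode the contactins. They were chosen by family name, with earlier results of these data known. Counts and medians over the 10 genes are therefore no independent support. All 10 were listed for every mouse and passed the filter on low counts in every comparison. Measured values entered through the choice of cells, since a cell was kept with at least 1 count of Snap25, a neuronal gene, and of Slc17a7, a glutamatergic gene, and was classed by Synpr, which encodes the vesicle protein synaptoporin. Snap25, Slc17a7 and Synpr were therefore not tested.

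IgLONs and contactins are cell adhesion molecules of the immunoglobulin superfamily that are held to the outer face of the membrane by a lipid anchor. IgLONs bind each other within and between cells and act in neurite outgrowth and synapse formation. Contactins act with partner membrane proteins in axon guidance, in the assembly of the node of Ranvier and in synapse formation, and some of them are found in subsets of neurons only.

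Single neurons had been picked manually in slices after the claustrum of 4 mature male C57BL/6 mice was microdissected. In 1 mouse, the WT mouse of the labels, a retrograde virus carrying a fluorophore in the anterior cingulate cortex guided the dissection, and cells were picked blind to it. In mice 1 to 3, green and red retrobeads injected into the lateral entorhinal cortex (LEC) and the retrosplenial cortex (RSC) marked cells that project there. Other cells of these mice carry the label Unlabeled and are here called unlabeled. The paper describes its cells without a named projection as picked blind. Neither the paper nor the labels state that these cells lacked beads, so the label does not show that a cell lacks either projection. Of 1112 cells, 1011 were kept, with 224, 220 and 329 from mice 1 to 3 and 238 from the WT mouse. Among the cells of mice 1 to 3 were 247 RSC, 286 LEC and 240 unlabeled cells. The median total per kept cell was 138535 to 154261.5 counts in mice 1 to 3 and 26023 counts in the WT mouse, so mouse and depth cannot be told apart. The paper ran 3 plates on a flow cell apart from the rest and does not name them. If these were plates 1 to 3, which held the WT mouse, flow cell goes with mouse and depth too. Each plate but 1 held cells of 1 mouse and 1 label, so plate and label cannot be told apart either. Of 368 well barcodes, 343 occurred in more than 1 plate, none was repeated within a plate, and no columns of counts were identical.

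Kept cells were called Synpr-high at 200 counts per 1000000 counts (CPM) of Synpr or more (438 cells) and Synpr-low below it (573 cells, of which 397 had 0 counts of Synpr). The 3 cells just below the limit had 177.6 to 199.9 CPM of Synpr and the 3 just at or above it 209.3 to 275.2. The summed level of Gnb4, Lxn, Gfra1, Nr4a2 and Slc17a6, markers of the claustrum core without Synpr itself, was 4007 to 4704 CPM in the Synpr-high cells of the 4 mice and 333 to 736 in the Synpr-low cells. That of the shell markers Slc30a3, Nnat and Spon1 was 47.7 to 101 and 641 to 1876 CPM. Of other cells, astrocyte, microglia and endothelium lists summed to at most 4.86 CPM in either class. The inhibitory list summed to 0 to 36.0 CPM in Synpr-high and 0 to 32.6 in Synpr-low cells. The oligodendrocyte list (Mog, Mobp, Mbp, Mag) summed to 24.0 to 152 CPM and 47.0 to 299 CPM, ranges that overlap.

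In the edgeR test without the mouse as a block, described further on, 4 genes passed between classes. The sequences before their starts, and before that of Opcml, the neighbour of Ntm, are shown so that base composition can be compared. Each is the 250 bases upstream of the first start that RefSeq lists on GRCm38.p6, read 5′ to 3′ on the gene's strand, and capitals mark a GC box (GGGCGG, either strand). Ntm lies at chr9:29413453-29413702 on the minus strand, Opcml at chr9:27791049-27791298 on the plus strand, Negr1 at chr3:156561544-156561793 on the plus strand, Cntn5 at chr9:10904776-10905025 on the minus strand and Cntn3 at chr6:102464668-102464917 on the minus strand.
Ntm: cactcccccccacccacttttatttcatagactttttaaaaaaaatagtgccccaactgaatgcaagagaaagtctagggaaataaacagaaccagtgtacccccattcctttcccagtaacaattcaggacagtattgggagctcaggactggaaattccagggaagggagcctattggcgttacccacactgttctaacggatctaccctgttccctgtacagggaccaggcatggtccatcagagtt
Opcml: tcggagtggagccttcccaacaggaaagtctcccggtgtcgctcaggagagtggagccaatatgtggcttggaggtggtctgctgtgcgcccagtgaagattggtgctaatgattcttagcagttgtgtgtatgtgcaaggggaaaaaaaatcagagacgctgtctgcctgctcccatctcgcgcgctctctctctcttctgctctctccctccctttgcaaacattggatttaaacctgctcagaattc
Negr1: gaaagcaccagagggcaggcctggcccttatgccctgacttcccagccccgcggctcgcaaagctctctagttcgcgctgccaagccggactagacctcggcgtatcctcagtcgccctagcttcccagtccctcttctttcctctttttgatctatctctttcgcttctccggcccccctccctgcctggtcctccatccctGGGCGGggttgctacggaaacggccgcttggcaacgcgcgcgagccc
Cntn5: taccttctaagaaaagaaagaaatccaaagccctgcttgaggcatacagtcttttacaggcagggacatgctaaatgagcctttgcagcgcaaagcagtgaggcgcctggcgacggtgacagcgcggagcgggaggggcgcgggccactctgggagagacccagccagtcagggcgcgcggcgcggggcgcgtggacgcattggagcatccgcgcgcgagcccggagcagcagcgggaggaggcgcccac
Cntn3: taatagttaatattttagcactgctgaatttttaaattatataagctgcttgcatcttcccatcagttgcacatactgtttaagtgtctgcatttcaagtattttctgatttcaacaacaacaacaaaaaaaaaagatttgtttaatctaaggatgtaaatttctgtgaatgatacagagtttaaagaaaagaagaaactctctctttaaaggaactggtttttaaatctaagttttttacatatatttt

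All 10 genes matched an entry of this RefSeq table. The window of Cntn5 had a GC content of 64.8% with 24 CpG, that of Negr1 63.6% with 19, those of Opcml and Ntm 52.0% with 8 and 46.8% with 2, and that of Cntn3 26.4% with none, against a median of 52.4% over 32851 such windows. A GC box was found in the window of Negr1 alone among these 5 first starts and in 32.7% of all windows. RefSeq lists a second start for Ntm (53.6% with 14 CpG) and for Cntn5 (68.4% with 26). The window of each second start had 1 GC box, so the contrast depends on the start taken. Neither a TATA box (TATAAA, in 12.4% of all windows) nor the binding motif of Nr4a receptors (AAAGGTCA, in 1.34%) was found in the 5, on either strand. Ntm and Opcml follow each other on the chromosome with 0 protein-coding genes between them and face each other with their 3′ ends. Cntn3, Cntn6 and Cntn4 lie in a row, with only Chl1, another adhesion gene, between the first pair. Cntn5 was the only one of the 10 whose exons overlap another gene, an antisense RNA, and since the use of strand in counting was not stated, reads of the pair cannot be told apart.

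To ask how the genes differ between the classes, counts were summed per mouse and class and compared over 4 mice. In the test without the mouse as a block, Ntm, Negr1 and Cntn5 were lower in Synpr-high cells and passed, and none that passed was higher. This was 3 of 10 genes, with 8.82% of 13641 genes tested called in either direction and 4.34% called lower. With the mouse as a block, given further on, 8 of the 10 passed (14.6% of genes called), of which Lsamp, Cntn2 and Cntn4 were higher. The median log2 fold change of the 10 genes was -0.30, against -0.00060 for all genes tested. Levels are CPM of the summed counts, and since counts come from a primer at the 3′ end of transcripts, levels are compared within a gene only. In pooled cells, fewer cells with a gene and less RNA per cell cannot be told apart.

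Ntm (neurotrimin, an IgLON of neurite growth) had 53.2, 57.3 and 39.9 CPM in the Synpr-high cells of mice 1 to 3 and 53.2 CPM in those of the WT mouse. In Synpr-low cells it had 300.5, 237.1, 306.5 and 489.7 CPM. The groups did not overlap, and Ntm was 4.14 to 9.21 times as high in the Synpr-low cells of a mouse as in its Synpr-high cells. The log2 fold change was -2.67 ± 0.25 (SE, n = 4 mice, 95% interval -3.22 to -2.12, edgeR's quasi-likelihood test, Benjamini-Hochberg adjusted p = 0.000145). That Ntm differs between such cells was known from these data when the genes were chosen, so its test is no independent support.

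Negr1 (the IgLON neuronal growth regulator, tied to body weight in human genetics) had 83.7, 51.5, 53.0 and 49.99 CPM in Synpr-high cells, given for mice 1 to 3 and then the WT mouse. In Synpr-low cells it had 124.8, 109.5, 102.0 and 135.2 CPM. Mouse 1 was the highest of the Synpr-high values, and the groups still did not overlap. Its log2 fold change was -0.94 ± 0.19 (SE, n = 4, edgeR's quasi-likelihood test, Benjamini-Hochberg adjusted p = 0.0115). The call was lost without mouse 2 (adjusted p = 0.0752), without mouse 3 (0.0683) and without the cells rich in deep-layer markers described further on (0.0516), all by the same edgeR test.

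Opcml (an IgLON first found as an opioid-binding protein) had 253.1, 246.1, 258.6 and 181.2 CPM in Synpr-high and 341.6, 266.6, 379.5 and 250.8 CPM in Synpr-low cells. It was lower in the Synpr-high cells of each of 4 mice, while the groups overlapped, and it did not pass (log2 fold change -0.35 ± 0.14, SE, edgeR adjusted p = 0.20). Lsamp (limbic system-associated membrane protein, an IgLON named for its place in the forebrain) had 347.2, 383.5, 418.5 and 262.6 CPM against 269.9, 363.1, 335.3 and 176.8 CPM. It was higher in the Synpr-high cells of all 4 mice, and did not pass either (0.36 ± 0.20, SE, edgeR adjusted p = 0.37). The neighbours Ntm and Opcml thus had intervals of the fold change that did not overlap, -3.22 to -2.12 and -0.67 to -0.03 on the log2 scale. Iglon5, the remaining IgLON, was listed for mice 1 to 3 only, where it had 0.1 to 2.2 CPM in either class.

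**Figure D1:**
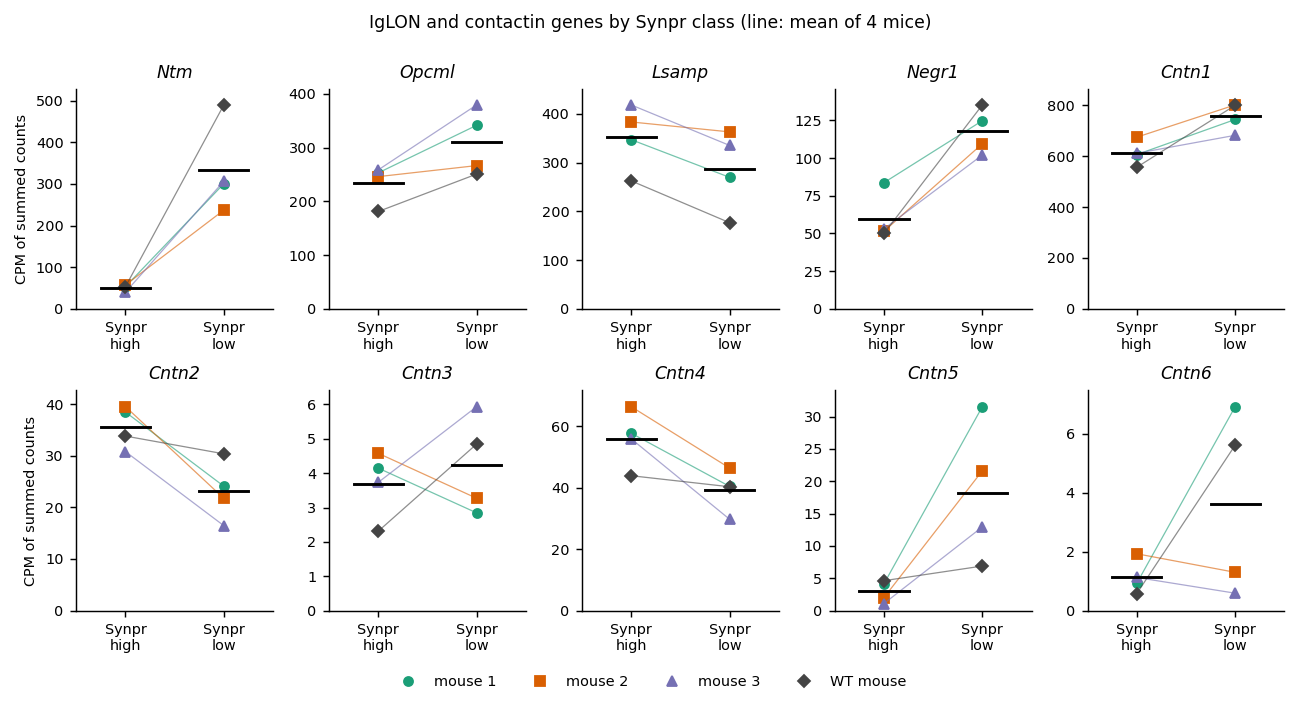
Level of the 10 genes (CPM of summed counts, linear axes from 0) in Synpr-high and Synpr-low cells; each point is a mouse, lines join a mouse, and black bars are the mean of 4 mice. Ntm, at 39.9 to 57.3 CPM against 237.1 to 489.7, and Negr1 separated the classes downward in Synpr-high cells, and Cntn2 and Cntn4 lay higher there in each mouse.

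Of the contactins, Cntn5 (NB-2, known from auditory and visual circuits) had 4.15, 2.01, 1.09 and 4.62 CPM in Synpr-high cells and 31.5, 21.6, 12.9 and 6.89 CPM in Synpr-low cells. The groups did not overlap, but the WT mouse differed far less (1.49-fold) than mouse 3 (11.9-fold). All Cntn5 counts in the Synpr-high cells of the WT mouse came from 1 cell, so the 1.49-fold difference rests on that cell. The log2 fold change of Cntn5 was -2.63 ± 0.57 (SE, n = 4, edgeR's quasi-likelihood test, Benjamini-Hochberg adjusted p = 0.0171). Its counts came from few cells, 12 of 438 Synpr-high and 88 of 573 Synpr-low cells. The call was lost without mouse 1, 2 or 3 in turn (edgeR adjusted p = 0.0682 to 0.13) and at a Synpr limit of 100 CPM (0.0805).

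The other contactins did not pass by edgeR without the mouse as a block. Cntn1 (contactin 1, which joins Caspr at the paranode) had 605.9, 674.2, 611.0 and 556.2 CPM in Synpr-high and 743.7, 801.0, 681.6 and 799.5 CPM in Synpr-low cells. It was lower in all 4 mice with groups that did not overlap (log2 fold change -0.26 ± 0.096, SE, edgeR adjusted p = 0.15). Cntn2 (TAG-1, an axonal protein that oligodendrocytes also make) had 38.5, 39.5, 30.8 and 33.8 CPM against 24.1, 21.7, 16.4 and 30.4 CPM. Again the groups did not overlap, in the other direction (0.68 ± 0.22, SE, edgeR adjusted p = 0.0922). Cntn4 (BIG-2, known from olfactory axon targeting) had 57.8, 66.4, 55.9 and 43.9 CPM against 40.4, 46.4, 29.8 and 40.3 CPM (0.56 ± 0.18, SE, edgeR adjusted p = 0.0866) and was higher in the Synpr-high cells of all 4 mice.

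Cntn3 (BIG-1, a neurite-promoting contactin) was at 2.31 to 4.58 CPM in Synpr-high and 2.84 to 5.94 in Synpr-low cells, higher in 2 mice and lower in 2. Cntn6 (NB-3, known from deep cortical projection neurons) was at 0.58 to 1.93 and 0.59 to 6.92 CPM, and its counts came from 10 of 438 and 35 of 573 cells. The interval of its log2 fold change reached from -3.39 to 0.26.

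The sums of a class come from the same mice, so that the mouse can be held as a block. With the block 8 of the 10 genes passed (14.6% of genes called). Beside Ntm, Negr1 and Cntn5, these were Opcml (log2 fold change -0.34, edgeR adjusted p = 0.0346) and Cntn1 (-0.25, 0.0409), lower in Synpr-high cells. Lsamp (0.38, 0.0192), Cntn2 (0.72, 0.0271) and Cntn4 (0.58, 0.0346) were higher there by the same blocked test. DESeq2, without a block, called 5 of the 10 (13.2% of genes), which were Ntm, Negr1, Cntn5, Cntn2 and Cntn4.

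**Figure D2:**
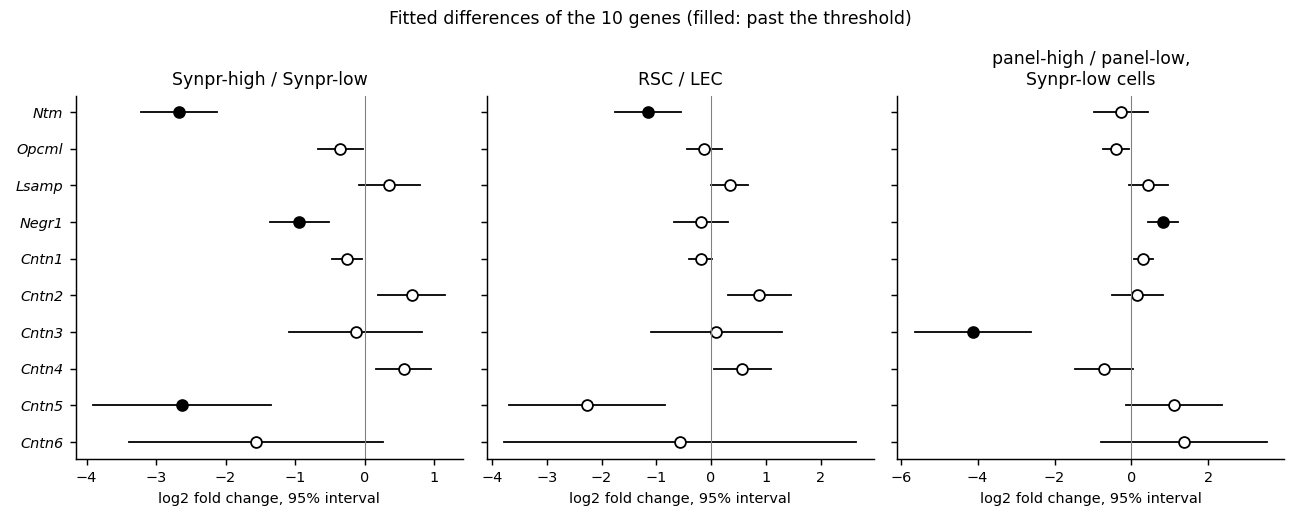
Log2 fold change (x axes, each with its own scale) with its 95% interval for the 10 genes in 3 comparisons by edgeR without a mouse block; filled points passed the threshold of 0.05 on the adjusted p. Ntm, Negr1 and Cntn5 are filled on the left, Ntm alone in the middle, and Negr1 and Cntn3 on the right, where they lie on opposite sides of 0.

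To see what a difference in sums means for cells, each cell was thinned to 20000 counts and shallower cells were left out, which kept 406 Synpr-high and 521 Synpr-low cells. Ntm then had a count in 33.5% of Synpr-high cells (95% exact Clopper-Pearson interval 28.9% to 38.3%) and in 79.7% of Synpr-low cells (75.9% to 83.0%). The intervals cover counting error only, and counts may share a molecule. Without thinning the shares were 43.8% and 87.1%, and by mouse the thinned shares ran from 30.2% to 38.8% and from 70.9% to 96.5%. The median Ntm level per cell was 0 CPM in Synpr-high and 266 CPM in Synpr-low cells, with upper quartiles of 68.6 and 473 CPM.

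Negr1 had a count in 42.4% of thinned Synpr-high and 57.4% of thinned Synpr-low cells, and Cntn5 in 1.97% and 11.9%. The reverse order held for Cntn4, at 44.6% and 29.2%, and for Cntn2, at 35.0% and 22.8%. Cntn1 was counted in 99.8% and 99.0% of these cells, so that it was found in nearly every neuron of both classes. Cntn3, at 4.43% and 4.22%, and Cntn6, at 1.72% and 2.69%, were found in few cells of either class.

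Ntm was also read over ranges of Synpr. In pooled cells it was at 297 CPM where Synpr was 0, at 289 CPM in the 132 cells above 0 and under 20 CPM of Synpr, and at 301 CPM in the 44 cells from 20 to under 200. It was at 85.5 CPM from 200 to under 1000 (53 cells), at 50.9 from 1000 to under 2000 (240 cells) and at 33.4 at 2000 CPM of Synpr or more (145 cells). The 3 ranges below the limit thus had like pooled levels. By mouse these were less alike, since the WT mouse had 449 CPM of Ntm where Synpr was 0 (109 cells), 967 CPM in 2 cells and 600 CPM in the 14 cells from 20 to under 200, while mice 1 to 3 had 235 to 320 CPM in all 3 ranges. The range from 200 to under 1000 CPM of Synpr held 31.4, 47.8, 114 and 196 CPM of Ntm in mice 1 to 3 and the WT mouse, from 8 to 16 cells each, so that in mouse 3 and the WT mouse it lay between the lower and the higher ranges. Over the thinned cells, Spearman's rho between Ntm and Synpr was -0.75 to -0.32 in the 4 mice, but -0.31 to 0.13 within Synpr-high and -0.06 to 0.15 within Synpr-low cells. These are descriptions over cells that share a mouse, a plate and a library.

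Only 13 cells lay from 100 to under 200 CPM of Synpr and 8 from 200 to under 400, so few cells change class with the limit. Ntm passed at limits of 100 and 400 CPM too.

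Projection targets were compared over mice 1 to 3, with the 3 labels fitted together. Ntm was lower in RSC cells than in LEC cells and passed the test, and no other of the 10 genes did. This was 1 of 10 genes, with 3.95% of 13976 genes called and 2.06% called lower. The median log2 fold change of the 10 genes was -0.15, against -0.0012 for all genes. Ntm had 97.1, 116.6 and 54.3 CPM in the RSC cells of mice 1 to 3, 194.0, 150.0 and 264.6 CPM in LEC cells and 266.6, 214.1 and 201.3 CPM in unlabeled cells. The RSC values lay below all others, and LEC and unlabeled cells overlapped.

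The log2 fold change of Ntm between RSC and LEC cells was -1.16 ± 0.27 (SE, n = 3 mice, edgeR's quasi-likelihood test, Benjamini-Hochberg adjusted p = 0.0394). With the mouse as a block, which called 3.86% of genes, it was -1.19 and did not pass (edgeR adjusted p = 0.0676). The call was also lost without plate 12, the plate that holds 2 labels (0.0510), and without mouse 1, 2 or 3 (0.0839 to 0.27), all by edgeR.

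Cntn5 had 4.50, 0.85 and 1.46 CPM in RSC cells, 14.3, 8.99 and 11.02 CPM in LEC cells and 42.7, 25.7 and 8.72 CPM in unlabeled cells. Between RSC and LEC cells, where the groups did not overlap, its log2 fold change was -2.27 ± 0.65 (SE, edgeR adjusted p = 0.0838). With the mouse as a block it passed, at -2.51 (edgeR adjusted p = 0.0310). Cntn2 had 43.6, 34.4 and 30.5 CPM in RSC cells against 20.6, 26.3 and 13.5 CPM in LEC cells, with no overlap (0.88 ± 0.26, SE, edgeR adjusted p = 0.0963). The oligodendrocyte list moved with mouse 1 in RSC cells, where it summed to 399 CPM against at most 188 CPM in any LEC sum, and its part in the level of Cntn2 was not tested.

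The other 7 genes had adjusted p values of 0.25 or more by edgeR's quasi-likelihood test between RSC and LEC cells. Cntn4 had 59.2, 67.9 and 60.1 CPM in RSC cells against 40.1, 51.4 and 37.3 CPM in LEC cells, higher in all 3 mice. Cntn1 had 587.3, 615.7 and 567.9 CPM against 707.2, 694.3 and 670.2 CPM, lower in all 3. Negr1 had 87.3, 72.0 and 56.4 CPM against 91.0, 69.0 and 90.4 CPM, which overlap.

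**Figure D3:**
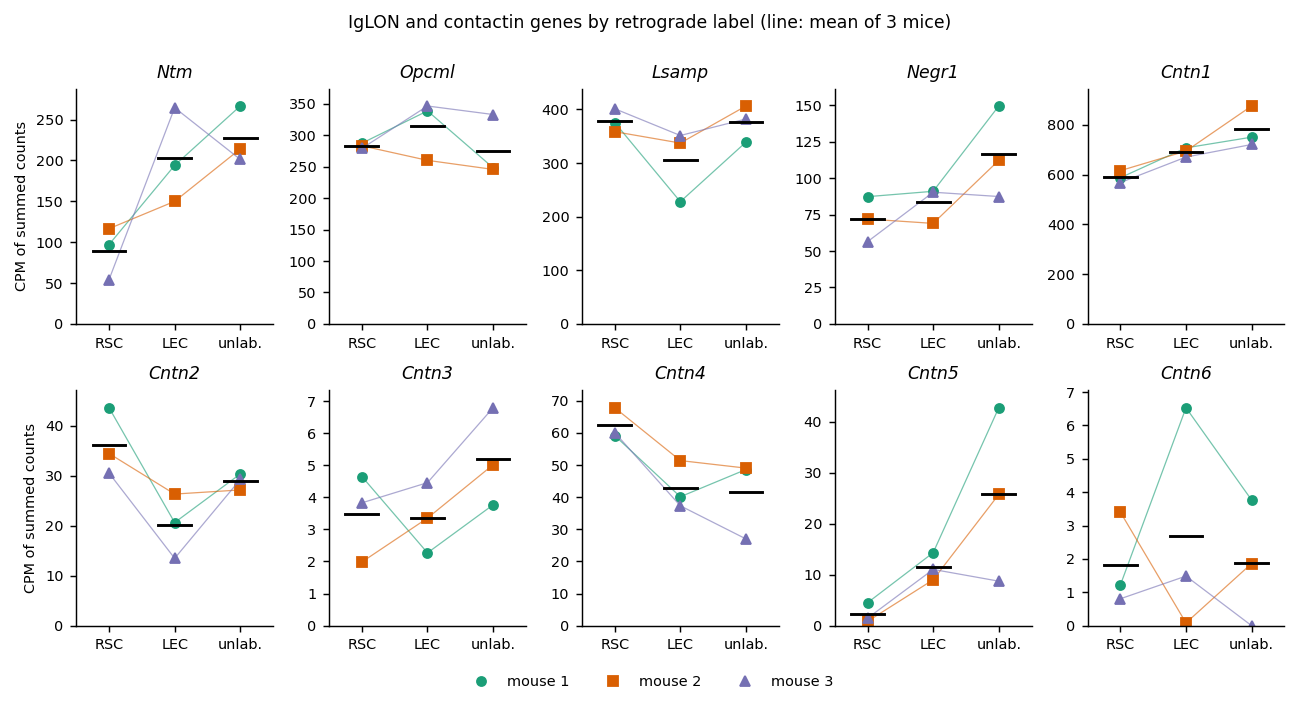
Level of the 10 genes (CPM of summed counts, linear axes from 0) in RSC, LEC and unlabeled (unlab.) cells of mice 1 to 3; points are mice, lines join a mouse, and black bars are the mean of 3 mice. The RSC points of Ntm, at 54.3 to 116.6 CPM, lie below all its LEC and unlabeled points, and those of Cntn5 do so too.

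Against unlabeled cells, 2 of the 10 genes were lower in RSC cells and passed (1.63% of 13976 genes called, 0.93% lower). Ntm had a log2 fold change of -1.33 ± 0.27 (SE, edgeR adjusted p = 0.0398) and Cntn5 one of -3.44 ± 0.67 (0.0325), both by the quasi-likelihood test. With the mouse as a block, and 1.46% of genes called, Cntn5 passed (adjusted p = 0.0205, edgeR) and Ntm did not (0.0720), and neither passed when 1 mouse was left out. Between LEC and unlabeled cells edgeR called 0 genes (0.0%; 1079 had an unadjusted p under 0.05), DESeq2 called 114 (0.816%) and none of the 10 genes was among either. Unlabeled cells held more of the deep-layer markers Ctgf, Sla, Foxp2, Tle4, Fezf2, Syt6 and Rprm, which summed to 145 to 489 CPM, against 31.2 to 43.4 CPM in LEC and 16.7 to 55.5 CPM in RSC cells. Their part in the differences from unlabeled cells was not tested.

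RSC cells were mostly Synpr-high (52 of 64, 56 of 70 and 105 of 113 cells in mice 1 to 3) and LEC cells mostly Synpr-low (62 of 80, 65 of 76 and 114 of 130). Projection targets were therefore also compared within a class, with 4 groups of label and class fitted together. Ntm had 57.9, 69.1 and 40.2 CPM in Synpr-high RSC cells and 58.5, 35.4 and 39.8 CPM in Synpr-high LEC cells. In Synpr-low cells it had 376.0, 295.0 and 292.8 CPM for RSC and 254.6, 175.1 and 308.6 CPM for LEC. Within a class the labels overlapped, and between classes they did not. Synpr-low RSC cells were few, 12, 14 and 8.

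Between RSC and LEC cells the log2 fold change of Ntm was 0.30 ± 0.27 (SE, 95% interval -0.28 to 0.89, edgeR adjusted p = 1) within Synpr-high and 0.43 ± 0.26 (-0.14 to 0.998, edgeR adjusted p = 0.59) within Synpr-low cells. Both intervals lie above the point estimate found without classes, -1.16 ± 0.27 (SE), which came from another fit. The difference between the fits was not tested. Within Synpr-high cells edgeR called 0 of 12410 genes (0.0%; 508 had an unadjusted p under 0.05) and DESeq2 16 (0.129%), and within Synpr-low cells edgeR called 24 genes (0.193%) and DESeq2 282 (2.27%). None of the 10 genes was among them.

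Between the classes Ntm was lower in Synpr-high cells of either label. The log2 fold change was -2.52 ± 0.28 within RSC cells (SE, n = 3 mice, edgeR adjusted p = 0.000641; 1.61% of genes called) and -2.40 ± 0.28 within LEC cells (0.000339; 2.59% called). The difference between these, the interaction of label and class, was -0.12 ± 0.38 (SE, 95% interval -0.94 to 0.69, edgeR adjusted p = 0.98; 0.0645% of genes called). Without plate 12, which left 3 Synpr-low RSC cells in mouse 3 and so 2 mice in that group, the value within RSC cells was -2.52 with an edgeR adjusted p of 0.0507. In the RSC Synpr-low cells of mouse 1 the oligodendrocyte list summed to 2507 CPM, against 41.1 and 70.5 CPM in mice 2 and 3, and Ntm was 4.27 to 7.28 times as high in the Synpr-low as in the Synpr-high RSC cells over the 3 mice.

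No other of the 10 genes passed within a label. Cntn5 had 0 counts in all 45 Synpr-high LEC cells, against 548 counts in 34 of 241 Synpr-low LEC cells. Set against a floor of 3 counts over the Synpr-high LEC cells, the pooled level was 49.2-fold higher in Synpr-low LEC cells. The two-sided 95% counting interval of the ratio began at 39.9. Both cover counting error only and treat counts as independent. Since the 548 counts came from 34 cells and may share molecules, neither value is a bound over cells or mice. The test gave adjusted p = 0.0591 by edgeR and 0.00107 by DESeq2, which called 6.77% of genes. In RSC cells Cntn5 had 5.04, 0 and 1.55 CPM in Synpr-high and 0.62, 4.04 and 0 CPM in Synpr-low cells, which overlap. Opcml had 264.0, 258.7 and 270.3 CPM in Synpr-high RSC cells against 453.2, 375.1 and 427.5 CPM in Synpr-low RSC cells, without overlap (log2 fold change -0.65 ± 0.18, SE, edgeR adjusted p = 0.0990).

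**Figure D4:**
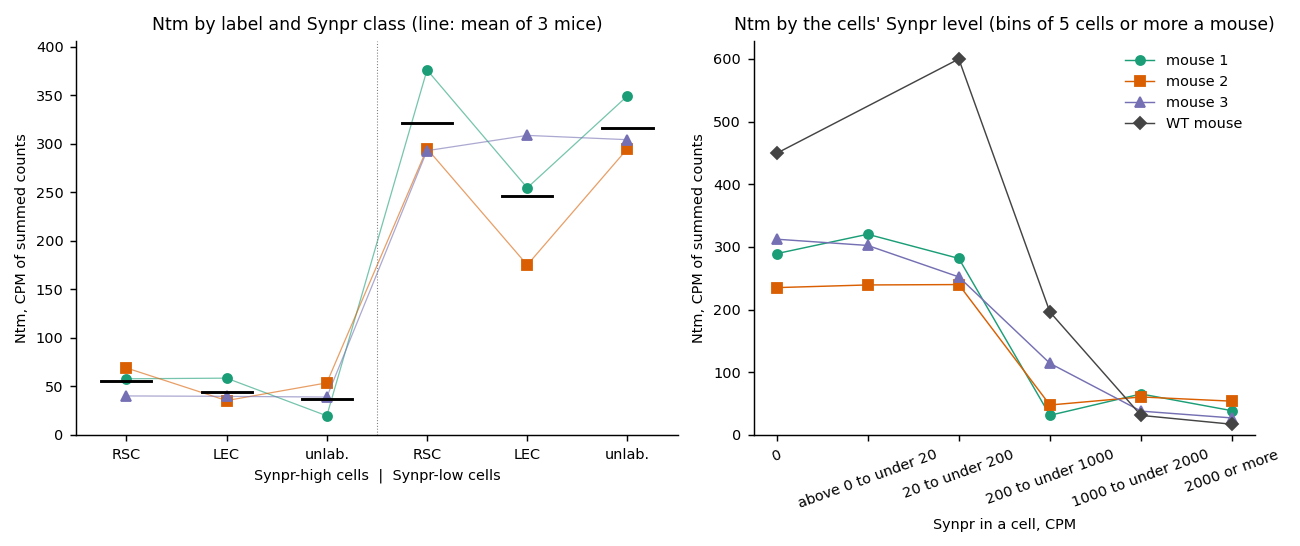
Ntm (CPM of summed counts) by label and Synpr class in mice 1 to 3, with black bars for the mean of 3 mice (left), and by the Synpr level of the cells in all 4 mice, for bins of at least 5 cells (right). Ntm lay at 19.7 to 69.1 CPM in every Synpr-high sum and at 175.1 to 376.0 CPM in every Synpr-low sum on the left, and was lower from 200 CPM of Synpr on the right.

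Synpr-low cells are not of 1 kind. They were split by the summed level of the 7 deep-layer markers into 159 cells at 100 CPM or more (panel-high) and 414 below (panel-low), and the panel genes were not tested. The shell markers summed to 848 to 1907 CPM in panel-low and 214 to 1753 CPM in panel-high cells. Negr1 was higher and Cntn3 lower in panel-high cells, and both passed the test, as 2 of 10 genes with 1.83% of 13035 genes called (0.936% higher and 0.898% lower). The median log2 fold change of the 10 genes was 0.23, against -0.016 for all genes.

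Negr1 had 183.7, 172.2, 146.8 and 183.8 CPM in the panel-high cells of mice 1 to 3 and the WT mouse. It had 98.1, 91.2, 90.4 and 111.7 CPM in panel-low cells, and the groups did not overlap. That gave a log2 fold change of 0.81 ± 0.18 (SE, n = 4, edgeR's quasi-likelihood test, Benjamini-Hochberg adjusted p = 0.0358). With Synpr-high cells at 49.99 to 83.7 CPM, the 3 classes formed an order in every mouse. In thinned cells Negr1 had a count in 70.2% of panel-high, 52.2% of panel-low and 42.4% of Synpr-high cells. The call between panel-high and panel-low cells was lost without any 1 of the 4 mice (edgeR adjusted p = 0.0600 to 0.22), in thinned cells (0.0575), without the filter on low counts (0.0523) and at a panel limit of 50 CPM (0.0791).

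Cntn3 had 0.17, 0.21, 0.36 and 0.78 CPM in panel-high cells and 4.05, 4.16, 7.38 and 6.82 CPM in panel-low cells. That is 5 counts in 4 of 159 cells against 296 counts in 42 of 414 cells. The pooled level was 19.3 times as high in panel-low cells (95% counting interval 8.20 to 60.0, which covers counting error only). The log2 fold change was -4.12 ± 0.70 (SE, n = 4, edgeR's quasi-likelihood test, Benjamini-Hochberg adjusted p = 0.00767). Synpr-high cells, at 2.31 to 4.58 CPM, lay above the panel-high cells in all 4 mice too. The call was lost without mouse 1, 2 or 3 (edgeR adjusted p = 0.0817 to 0.0925) and at a panel limit of 50 CPM (0.32), where the log2 fold change was -1.88. Cells thinned to 20000 counts gave no fit for Cntn3, which then fell under the filter.

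Ntm did not pass between the Synpr-low classes. It had 301.2, 152.4, 195.1 and 497.4 CPM in panel-high and 300.2, 261.8, 335.4 and 485.9 CPM in panel-low cells (log2 fold change -0.27 ± 0.32, SE, 95% interval -0.96 to 0.43, edgeR adjusted p = 0.85). In thinned cells Ntm had a count in 66.2% of panel-high (95% exact Clopper-Pearson interval 58.1% to 73.7%) and 85.1% of panel-low cells (81.1% to 88.6%). By mouse these shares overlapped, at 45.2% to 96.3% and 79.2% to 96.6%. Cntn5 had 40.1, 52.8, 18.7 and 10.2 CPM against 27.7, 12.5, 11.5 and 5.30 CPM, higher in the panel-high cells of all 4 mice (1.10 ± 0.58, SE, edgeR adjusted p = 0.47). Lsamp had 345.0, 481.6, 379.2 and 208.8 CPM against 235.8, 328.6, 324.0 and 161.4 CPM, and passed only with the mouse as a block (0.44, edgeR adjusted p = 0.0492). With the block 3 of the 10 genes passed and 3.19% of genes were called.

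When Synpr-high cells were set against panel-low cells alone, Ntm, Negr1 and Cntn5 were lower and passed, as 3 of 10 genes with 5.81% called and 3.05% called lower. The log2 fold changes were -2.72 ± 0.34 for Ntm (edgeR adjusted p = 0.000285), -0.67 ± 0.18 for Negr1 (0.0437) and -2.27 ± 0.62 for Cntn5 (0.0455), each with its SE over 4 mice. With the mouse as a block Lsamp (0.52, edgeR adjusted p = 0.00889) and Opcml (-0.44, 0.0227) passed too, and 9.28% of genes were called. Negr1 passed under 8 of 16 alternatives and was lost without mouse 2, 3 or 4 (edgeR adjusted p = 0.17 to 0.22), in thinned cells (0.0885), without the filter (0.0643), at panel limits of 50 and 200 CPM (0.0702 and 0.0731) and at a Synpr limit of 100 CPM (0.14). Cntn5 passed under 9 of 16 and was lost without mouse 1, 2 or 3 (0.21 to 0.27), with at least 2 counts of Snap25 and Slc17a7 (0.0642), without cells with Gad1 and Gad2 (0.0550), at a panel limit of 200 CPM (0.0576) and at a Synpr limit of 100 CPM (0.30). This comparison shares the panel-low sums with that of panel-high cells and the Synpr-high sums with that of the Synpr classes.

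**Figure D5:**
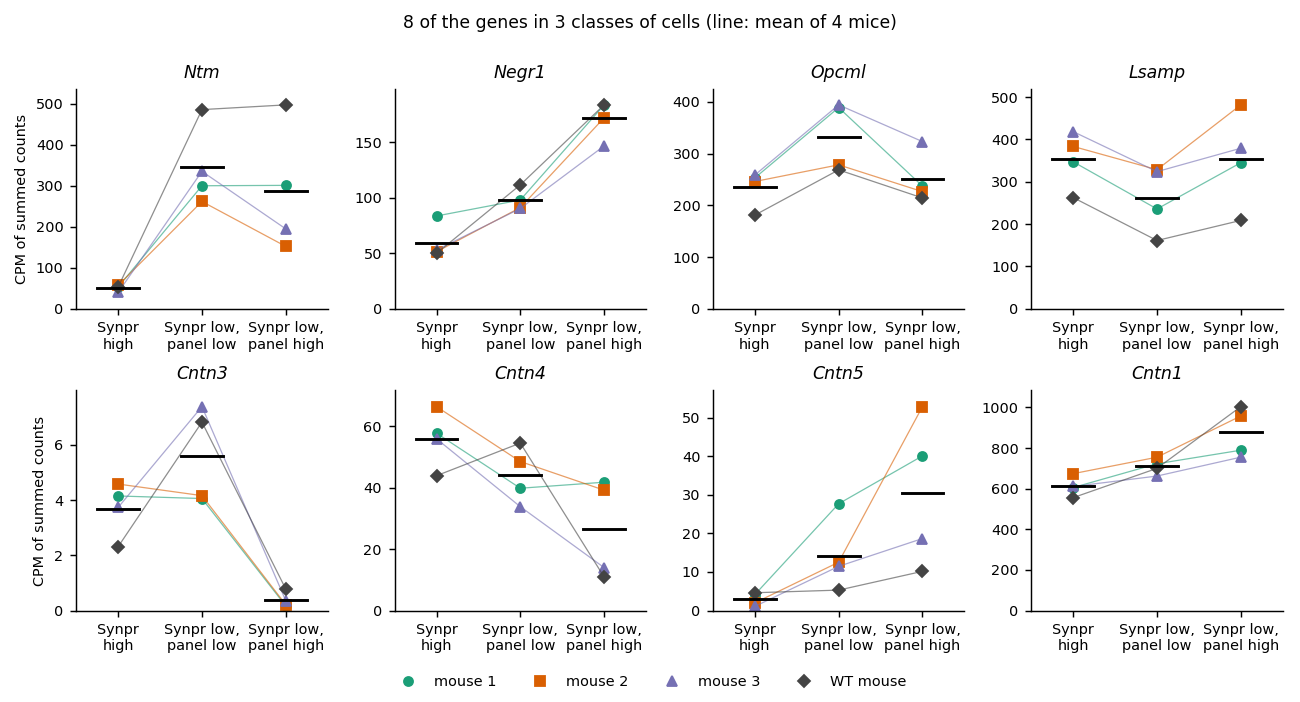
Level of 8 of the 10 genes (CPM of summed counts, linear axes from 0) in Synpr-high cells and in Synpr-low cells below and at or above 100 CPM of the deep-layer panel; points are mice, lines join a mouse, and black bars are the mean of 4 mice. Negr1 steps up from 49.99 to 83.7 CPM over 90.4 to 111.7 to 146.8 to 183.8 CPM, Cntn3 is near 0 in panel-high cells alone, and Ntm separates Synpr-high cells from both other classes.

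A list of 18 genes of proteins that bind or cut these molecules was chosen, also with earlier results of these data known. Between the Synpr classes 17 were tested. Of these, 3 were higher in Synpr-high cells and 1 was lower, with 8.82% of all genes called, and their median log2 fold change was 0.19, against -0.00060 for all genes. Nfasc (neurofascin, a partner of Cntn1 beside the node) had 126.3, 136.8, 121.0 and 86.4 CPM against 84.8, 57.7, 61.7 and 63.5 CPM in Synpr-low cells (0.86 ± 0.17, SE, edgeR adjusted p = 0.00925). Adam10 (a protease that sheds membrane proteins) was higher too (0.49 ± 0.13, SE, edgeR adjusted p = 0.0450).

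Cntnap3, of the Caspr family of contactin partners, had 6.49, 9.24, 12.5 and 8.09 CPM against 0.86, 0.14, 0 and 1.79 CPM (edgeR adjusted p = 0.0355). Ptprz1, a receptor phosphatase whose outer part binds contactins, had 1 count in all Synpr-high cells, against 728 counts in 56 of 573 Synpr-low cells (edgeR adjusted p = 0.000417). Of these calls between Synpr classes, that of Ptprz1 held under all 15 alternatives. Adam10 did not pass when any 1 of the 4 mice was left out (edgeR adjusted p = 0.0801 to 0.26), without panel-high cells (0.0858), without the filter on low counts (0.0620) or at a Synpr limit of 400 CPM (0.0527). Nfasc was lost without mouse 2 or 3 (0.0871 and 0.0931) and Cntnap3 without mouse 1, 2 or 3 (0.0885 to 0.17), by the same edgeR test. The other 13 tested did not pass, and with the mouse as a block Aplp1 (log2 fold change -0.23, edgeR adjusted p = 0.0227) and Cntnap4 (-0.97, 0.0236) passed too, which made 3 higher and 3 lower with 14.6% of genes called.

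The list of oligodendrocyte precursors (Pdgfra, Cspg4, Olig1), cells that also make Ptprz1, summed to 0 to 9.33 CPM in Synpr-high and 0.51 to 30.8 CPM in Synpr-low cells, and its part in the level of Ptprz1 was not tested. By label Ptprz1 had 0.08, 0 and 0.20 CPM in RSC cells and 4.33, 14.0 and 14.4 CPM in LEC cells (edgeR adjusted p = 0.0137), and Nfasc was again higher in RSC cells (0.78 ± 0.15, SE, edgeR adjusted p = 0.0147). These were the 2 of 18 listed genes that passed between RSC and LEC cells, where 3.95% of all genes were called, and neither passed without mouse 2 or 3 (edgeR adjusted p = 0.13 to 0.19). Against unlabeled cells Cntnap4, another Caspr family gene, was the 1 of 18 listed genes to pass by edgeR (1.63% of all genes called), with 17.1, 14.2 and 16.0 CPM in RSC and 30.4, 35.2 and 37.2 CPM in unlabeled cells (log2 fold change -1.09 ± 0.23, SE, edgeR adjusted p = 0.0446). It did not pass with the mouse as a block (edgeR adjusted p = 0.0720), when any 1 of the 3 mice was left out (0.11 to 0.37), without plate 12 (0.0931) or without the filter on low counts (0.0512).

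Over the 20 sums of mouse, label and class, and among 8607 genes, those whose log2 level was most like that of Ntm were Syt13 (Pearson's r = 0.95), Fezf2 (0.94) and Fam155a (0.93), while r with Synpr was -0.93. Those most like Negr1 were Arhgap25 (0.83), Bcl11a (0.82) and Clstn2 (0.81), and those most like Cntn5 were Smpdl3a (0.83), Lrrtm3 (0.80) and Col23a1 (0.80). Those most like Cntn3 were Usp53 (0.82), Dlg2 (0.80) and Bnip1 (0.80). The sums share mice and plates, and they are themselves split by Synpr. A gene that differs between the classes therefore correlates with Synpr over them, and the r of Ntm with Synpr is no separate support. All these values are descriptions over the sums, and the genes named as most like were picked as the highest among 8607. Cntn3 and Cntn5 had counts in few cells. Fezf2 is among the deep-layer markers used to split Synpr-low cells.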

How the data were processed

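Cells of 4 mice in 13 plates had been reverse transcribed with a barcoded primer, and the authors tagged reads to barcodes and UMIs, aligned them with STAR and deposited whole counts per gene and cell, not normalized. The labels name build NCBIM37 and Seurat. The version of STAR, the annotation, the use of strand and whether UMIs were collapsed are not given in the sources used here, so counts may share molecules. Mouse and projection of a cell were read from the deposited cell tables. Spike-ins were left out, and a gene of 1 table only was set to 0 in the other. Neighbours, overlaps and upstream sequences came from RefSeq on GRCm38.p6, and no coordinates of another build were used.

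Counts were summed per mouse and group of at least 5 cells and compared by edgeR 4.0.16 (filterByExpr, TMM, quasi-likelihood test, Benjamini-Hochberg over all genes tested, threshold 0.05) in R 4.3.3. Unless said otherwise, an edgeR adjusted p is from that test. DESeq2 1.42.0, the mouse as a block, RLE scaling, no filter, thinning to 20000 counts, other limits, stricter cells, genes of both tables and leaving out each mouse were alternatives. Those without plate 12 and without the 4 cells with Gad1 and Gad2, other Synpr limits for the 3 classes, and the alternatives of comparisons that share a fit with another were chosen after seeing the data. The fits were tested on simulated data. Levels are CPM of summed counts, without TMM. Mice pair the sums by design. Deviations from group means correlated between sums of 1 mouse with a median r of 0.35 (0.30 to 0.74) for Synpr classes, 0.092 (-0.089 to 0.22) for labels and 0.28 (0.17 to 0.72) for the 3 classes. Named were all 10 genes, Iglon5 and partners past the threshold. For each of the 10, the 3 genes of highest Pearson's r of log2(CPM + 1) were sought among those with a mean of 10 CPM or more. They are given here for the genes past the threshold between classes by edgeR without a block. The 10 genes and all lists were chosen with earlier results of these data known. In Python 3.11.15, shares used scipy 1.17.1. 1 gene of the oligodendrocyte list is not reported here and was left out of its sums.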

Additional observations from a re-analysis of the deposited data

Results flagged for a closer look

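In 50 groups of 4 mice, 3 values lay far from the other 3 mice by Dixon's test, which chance alone gives for about 1 group in 20. Negr1 was highest in the Synpr-high cells of mouse 1, at 83.7 CPM against 49.99 to 53.0 CPM in the other 3. Opcml was lowest in the Synpr-high cells of the WT mouse, at 181.2 CPM against 246.1 to 258.6 CPM. Ntm over all kept cells was highest in the WT mouse, at 285.0 CPM against 169.8 to 177.9 CPM. The WT mouse was also the shallowest, and the part of depth in these values was not tested. No difference of the 10 genes between labels, in the test of the interaction of label and Synpr class, passed the threshold.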

How the results depend on the processing

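Of the alternative values of the log2 fold changes given in the text, 504 kept their direction and side of the threshold, 47 no longer passed, 14 newly passed and 13 changed sign, none of the last in a call. The 504 include values that passed in neither fit, so they do not measure how far calls held. Between Synpr classes Negr1 passed under 12 of 15 alternatives and Cntn5 under 11 of 15. Between RSC and LEC cells Ntm passed under 7 of 12. Between panel-high and panel-low cells Negr1 passed under 9 of 16 and Cntn3 under 11 of 15. Ntm passed between Synpr classes under all 15 alternatives (log2 fold change -2.87 to -2.32). Between Synpr classes the members that passed went from 3 to 5 by DESeq2 and 8 with the mouse as replicate block, were 1 to 4 when a mouse was left out, and all genes called went from 1203 to 1995 with the block and 545 to 1581 without a mouse. Between RSC and LEC cells 1 member became 3 by DESeq2, 2 without a filter, 0 without plate 12 and 0 without any mouse, and 552 genes became 1145 by DESeq2 and 59 to 391 without a mouse. The 2 members lower in RSC than in unlabeled cells became 3 by DESeq2 and in thinned cells, 1 with the block, 1 without plate 12 and 0 without any mouse. Within RSC cells 1 member became 2 by DESeq2 and in thinned cells and 0 without plate 12, and within LEC cells 2 by DESeq2 and without a filter. Between panel-high and panel-low cells 2 members became 0 in thinned cells and at a panel limit of 50 CPM, 1 without a filter and 0 to 1 without a mouse, and 239 genes became 572 by DESeq2, 416 with the block, 534 and 135 at panel limits of 200 and 50 CPM and 57 to 224 without a mouse. Changes of sign, in log2 fold changes that did not pass, were as follows. Ntm went to 0.16 in thinned cells for LEC against unlabeled. For RSC against LEC within Synpr-high cells it went to -0.10 at a Synpr limit of 100 CPM and ranged from -0.0093 to 0.51 without a mouse. For the interaction it went to 0.056 at a limit of 400 CPM and 0.15 without plate 12, and ranged from -0.29 to 0.21 without a mouse. For RSC against LEC, Negr1 went to 0.069 in thinned cells and ranged from -0.31 to 0.029, Cntn3 from -0.37 to 0.36 and Cntn6 from -1.95 to 1.41 without a mouse. Without a mouse Cntn3 between Synpr classes ranged from -0.36 to 0.096 and Cntn2 between panel classes from -0.086 to 0.45. The cause was not tested. Over the other comparisons the genes called ranged from 0 to 16 for RSC against LEC within Synpr-high cells (0 in the text), 0 to 282 within Synpr-low cells (24), 0 to 114 for LEC against unlabeled (0), 8 to 661 for RSC against unlabeled (228), 89 to 840 and 23 to 650 between Synpr classes within LEC (322) and RSC (200) cells, 284 to 1209 for Synpr-high against panel-low cells (757) and 0 to 113 for the interaction (8). Where 1 mouse was left out of 3 or 4, fewer samples entered the fit, and without plate 12 the Synpr-low RSC cells of mouse 3 did not enter it. Cntn3, Cntn5 and Cntn6 had counts in few cells, and the part of depth in this was not tested.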
